A study of Mus musculus with 20 samples.

Results

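This account concerns the change in RNA levels between diplotene spermatocytes and meiosis II cells of wild-type (WT) mice. Its members are the genes of the deposited table that reached at least 1 FPKM (a count of fragments relative to transcript length and sequencing depth) in at least 2 of the 4 WT libraries of these stages. There were 11450 such genes among 23235, or 49.3%. The genes nearest the limit were 1110021L09Rik and Stap1 inside it, with a second-highest value of 1.0002 and 1.0005 FPKM, and Kdm1b and Ntm outside it, with 0.9993 FPKM each.

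The study sorted spermatocytes by flow cytometry from testes of adult WT and Cxxc1-null mice on a C57BL/6 background and prepared each library from 500 cells by Smart-seq2, in which oligo-dT primes cDNA along the whole transcript. There were 12 RNA libraries in 6 groups of 2, from pachytene, diplotene and meiosis II cells of both genotypes. The comparison used the 2 WT diplotene and 2 WT meiosis II libraries. The Cxxc1-null libraries of these stages, named for a gene that encodes a CpG-binding subunit of H3K4 methyltransferase complexes, served as a second run of the same stage change. Another 8 libraries, of H3K4me3 ChIP, were not used. No label ties the replicates of a group to different animals, and the p-values therefore cover the scatter of library pairs, possibly technical only.

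In diplotene, homologous chromosomes have recombined and remain joined at chiasmata while the synaptonemal complex between them comes apart. Cyclin B and CDK1 then drive the first division, which separates homologues, and after a short interval the second division separates sister chromatids and yields round spermatids. The sex chromosomes are transcriptionally silenced in a sex body through pachytene and diplotene. Many genes of the sperm head and tail are first transcribed in late spermatocytes and round spermatids.

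Between 9838 and 9862 genes reached 1 FPKM in a diplotene library, and 11624 and 10955 did in meiosis II libraries 1 and 2. Across the genes tested, replicates correlated at r = 0.976 in diplotene and 0.972 in meiosis II, and libraries of different stage at 0.825 to 0.854. Genes are not independent replicates, so these values are descriptions. The FPKM values of a library summed to between 689495 and 730025, and the number of sequenced fragments behind them is unknown. Cxxc1 had 13.7 and 17.6 FPKM in WT diplotene, 12.5 and 12.8 in WT meiosis II, and means of 8.93 ± 0.91 and 2.56 ± 0.76 (SD, n = 2) in Cxxc1-null diplotene and meiosis II. The targeted transcript was thus lower but still measured in the libraries labelled Cxxc1-null. The libraries that stood apart in the series, WT pachytene replicate 2 and Cxxc1-null diplotene replicate 2, belong to neither WT group compared.

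The transition changed the levels of many genes, with the largest differences in the direction of meiosis II. Of the 11450 members, 3059 were higher and 2380 were lower in meiosis II (limma on log2(FPKM + 1), adjusted p under 0.05 over 12956 genes tested). Over all genes tested, 26.1% were called higher, 18.9% lower and 45% in either direction. By at least 2 on the log2 scale, 1376 members rose and 166 fell, and by at least 4, 309 rose and 4 fell. The called rises held 4.13% and 4.15% of the summed FPKM of the diplotene libraries and 19.2% and 18.3% of that of meiosis II. The called falls went from 20.4% and 19.7% to 9.45% and 9.06%. The balance of rises and falls depends on the scaling: 56.2% of called members were higher as deposited, 42.2% after quantile normalization and 41.2% with a common median, which moved the median change of all tested genes from 0.02 to -0.23 and -0.28. Values below are relative to the deposited scale. In bulk libraries, fewer cells of a type and less RNA per cell cannot be told apart.

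Membership itself fixed part of these counts. A total of 1451 members reached 1 FPKM in meiosis II libraries only, of which 1385 were called higher. Another 310 did so in diplotene only, of which 248 were called lower. Of the 8863 members at 1 FPKM or more in all 4 libraries, 1426 were higher and 2016 lower, with a median change of -0.15. Both meiosis II libraries lay above both diplotene libraries for 4324 members and below them for 4323, against 38.2% and 35.8% of all genes tested.

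Sizes of the rises fell into separate groups. Among the 4253 members at 20 FPKM or more in meiosis II and above 0 in diplotene, 3007 had a ratio of stage means between 0.5 and 2, 103 between 4 and 8, 97 between 8 and 16, and 387 between 16 and 32. The 466 members at a ratio of 16 or more had a median ratio of 24.2, with quartiles of 20.6 and 29.4. As a share of the meiosis II mean, which the limit of 16 caps, their diplotene level had a median of 3.23% in diplotene library 1 (quartiles 2.53% and 3.94%) and 4.798% in library 2 (3.88% and 5.99%). The medians were 2.84% and 4.30% for the 52 X-linked members of this group and 3.25% and 4.82% for the 405 autosomal members. In the Cxxc1-null diplotene libraries the same genes had medians of 5.44% and 21.1% of their WT meiosis II mean. The 9 round spermatid markers in this group had 3.36% and 4.65% in WT diplotene, and whether a small number of later cells in the diplotene sort gave these diplotene levels was not tested. These genes were grouped after their values were seen.

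**Figure D1:**
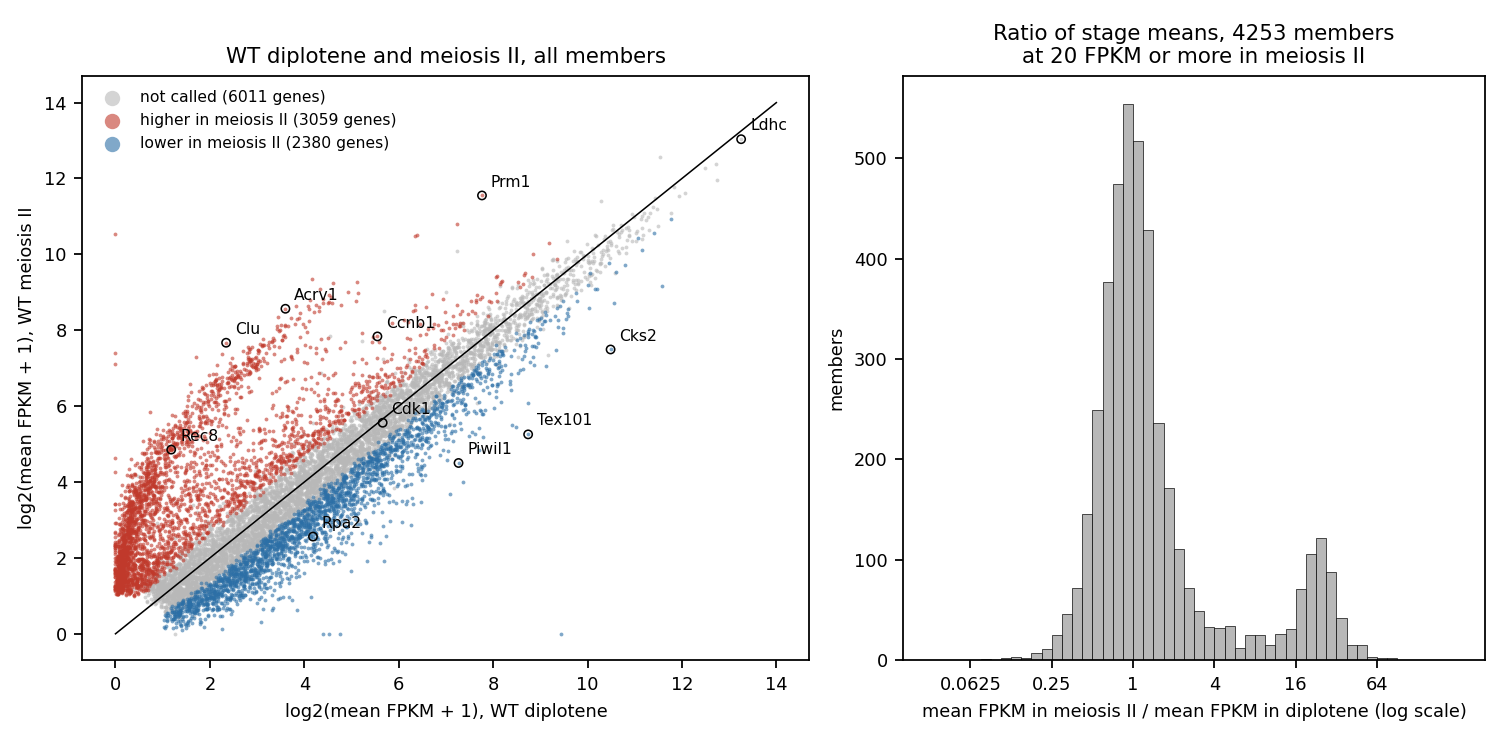
Left, log2(mean FPKM + 1) of each of the 11450 members in WT diplotene (horizontal) and WT meiosis II (vertical), colored by the limma call, with equal levels on the black line; right, the number of members by the ratio of the stage means, on a log axis, for the 4253 members at 20 FPKM or more in meiosis II. Most members lie near a ratio of 1, and a separate group of rises lies near a ratio of 24.

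Genes of prophase recombination and synapsis were lower in meiosis II. Of 18 strand exchange genes 14 fell and 0 rose, with a median change of -1.22 beside -0.01 over all members. Over all members 20.8% fell and 26.7% rose. Rpa2, a subunit gene of the replication protein A that coats single-stranded DNA, had 16.6 and 17.8 FPKM in diplotene libraries 1 and 2 and 6.00 and 3.81 in meiosis II libraries 1 and 2, a change of log2 -1.65 ± 0.22 (SE; limma adjusted p = 0.00021). Rad54l, which encodes a DNA motor protein of strand exchange, went from 6.35 and 5.46 to 1.79 and 1.91 FPKM. The stage groups did not overlap for either gene. Without meiosis II replicate 2 the number of strand exchange genes that fell was 9.

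Of 9 synaptonemal complex genes 6 fell and 0 rose, with a median of -1.33. Tex12, a central element gene, had 85.1 and 65.6 FPKM in diplotene and 5.04 and 7.44 in meiosis II, the deepest fall of this list (log2 -3.41 ± 0.48, limma adjusted p = 0.00026). Sycp2 and Sycp3 encode lateral element proteins. Sycp2 went from 137 and 113 to 44.2 and 40.9 FPKM (-1.53 ± 0.24), and Sycp3 from 426 and 377 to 179 and 140 FPKM (-1.33 ± 0.37). The central element genes Syce1, Syce2 and Syce3 did not pass the test, with changes of -0.11, 0.36 and 0.18. The Sycp3 call was lost without diplotene replicate 1 (-1.24) or meiosis II replicate 2 (-1.16). The transverse filament gene Sycp1 (63.3 and 71.1 to 31.8 and 35.8 FPKM, -0.97 ± 0.33) lost its call when any single WT library was left out, at -0.89 to -1.06.

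Other recombination lists changed less uniformly. Of 13 crossover genes 5 fell and 1 rose, 38.5% and 7.69% beside 20.8% and 26.7% over all members. Of the 11 at 1 FPKM or more in all 4 libraries 3 fell and 1 rose, beside 22.7% and 16.1% of all members at that level. The rise was lost when any single WT library was left out. Ccnb1ip1, which encodes a crossover factor of the RING finger type, went from 16.6 and 10.0 FPKM to 0.605 and 0.512 FPKM (log2 -3.16 ± 0.36). It passed the membership limit in diplotene only. Cdk2, a kinase found at crossover sites and telomeres, went from 71.4 and 70.7 to 14.8 and 13.4 FPKM (-2.26 ± 0.21). Of 7 break formation and axis genes 3 fell and 0 rose, a share of 42.9% lower. Among the falls was the axis gene Hormad1, from 215 and 123 to 80.2 and 47.7 FPKM (-1.38 ± 0.49). The Hormad1 call was lost without diplotene replicate 1 (-0.98) or meiosis II replicate 2 (-1.01), and the number of genes that fell in this list was 1 and 5 without diplotene replicate 1 and 2. The break-forming enzyme gene Spo11 had 174 and 92.3 FPKM and then 83.55 and 57.2 FPKM and did not pass (-0.87 ± 0.34, limma adjusted p = 0.061). Spo11 was called with quantile normalization (-0.97), with a common median (-1.16) and with the replicate number as a block (-0.87), though no label pairs the libraries. With each of these settings 5 genes of the list fell. Without diplotene replicate 2 the Spo11 change was -1.32. Prdm9 and Dmc1, which act earlier in prophase, were under 0.5 FPKM in all 4 libraries and are not members. Of 12 sex body genes 7 fell and 1 rose, 58.3% and 8.33%, the rise being of the X-linked Scml2. Topbp1 and Atr, of the kinase pathway that silences the sex chromosomes, went from 10.9 and 9.72 to 2.49 and 1.69 FPKM and from 92.4 and 79.9 to 40.2 and 27.2 FPKM.

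Genes of the piRNA pathway, which makes small RNAs that guard the germ line against transposons, fell as a large majority. Of 21 members 15 fell and 1 rose, with a median of -1.16. Piwil1, which binds pachytene piRNAs, had 136 and 170 FPKM in diplotene and 23.6 and 19.8 in meiosis II (log2 -2.76 ± 0.23, limma adjusted p = 2.4e-05). The tudor domain genes Tdrd1 (72.3 and 67.2 to 10.5 and 9.15 FPKM, -2.71 ± 0.19) and Tdrd5 (87.9 and 67.9 to 11.05 and 8.204 FPKM, -2.89 ± 0.24) fell by similar amounts. Tdrd7, another tudor domain gene, rose by 0.55, a call lost when any single WT library was left out. The helicase gene Ddx4, a marker of germ cells in general, had 474 and 237 and then 434 and 316 FPKM, groups that overlap (0.14 ± 0.42, limma adjusted p = 0.81). The number of piRNA pathway genes that fell was 11 to 13 with 1 WT library left out.

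Regulators of the meiotic divisions moved in both directions. Of 31 division kinase and anaphase-promoting complex genes 10 rose and 6 fell, 32.3% and 19.4% beside 26.7% and 20.8% over all members, with a median of -0.08. The mitotic cyclin gene Ccnb1 had 56.8 and 34.8 FPKM in diplotene and 258 and 198 FPKM in meiosis II (log2 2.32 ± 0.28, limma adjusted p = 0.00011). Its partner kinase gene Cdk1 had 60.8 and 38.4 and then 53.5 and 39.0 FPKM, with overlapping groups (-0.08 ± 0.32, limma adjusted p = 0.87). The phosphatase gene Cdc25c, an activator of CDK1, rose from 2.91 and 2.62 to 19.4 and 21.9 FPKM, and Plk1, a kinase of spindle assembly, from 37.7 and 35.5 to 166 and 138 FPKM. Cks2, a small CDK-binding subunit required for the first meiotic division, fell from 1541 and 1330 FPKM to 216 and 143 FPKM (-3.02 ± 0.35). Mad2l1, which encodes the spindle checkpoint protein MAD2, fell from 24.99 and 16.1 to 2.74 and 2.37 FPKM (-2.57 ± 0.32). Without meiosis II replicate 2 the falls in this list were 3.

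Of 15 cohesin members 4 rose and 2 fell, shares of 26.7% and 13.3% beside 26.7% and 20.8% over all members, so the list as a whole had no excess of rises. There was 1 fall without diplotene replicate 2 or either meiosis II library. Rec8, the meiotic kleisin that holds sister chromatids together until the second division, had 0.4999 and 2.03 FPKM in diplotene and 26.6 and 29.3 in meiosis II (log2 3.76 ± 0.42, limma adjusted p = 7.4e-05). Smc3, a core subunit, went from 2.51 and 2.87 to 22.3 and 16.04 FPKM (2.43 ± 0.23), and the mitotic kleisin Rad21 from 2.72 and 3.36 to 11.9 and 8.21 FPKM (1.44 ± 0.25). Stag3, the meiotic partner of REC8, had 110 and 86.0 and then 97.3 and 82.4 FPKM, with overlapping groups (-0.12 ± 0.32). Of 26 spindle, kinetochore and cytokinesis genes 7 rose and 4 fell, 26.9% and 15.4%, with the rises at the share over all members. The kinetochore motor gene Cenpe went from 12.3 and 11.9 to 42.8 and 32.2 FPKM (1.54 ± 0.21), and the midbody kinesin Kif23 from 8.88 and 6.97 to 37.3 and 29.4 FPKM (1.94 ± 0.25). The rises in this list were 3 without meiosis II replicate 1 and 4 without diplotene replicate 2 or with a common median.

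Spermatid genes were among the largest rises. Of 14 round spermatid markers 13 rose, with a median of 4.17, and their summed level went from 765 and 1146 to 8289 and 11115 FPKM. Acrv1, an acrosomal vesicle protein gene, had 10.4 and 11.9 FPKM in diplotene and 465 and 291 in meiosis II (log2 4.93 ± 0.53, limma adjusted p = 6.3e-05). Of 23 acrosome and fertilization genes, a list that shares Acrv1, Acr, Izumo1, Spaca1 and Spesp1 with the markers, 11 rose and 1 fell. Spam1, a sperm hyaluronidase, rose from 1.66 and 0.943 to 69.0 and 38.9 FPKM, and Izumo1, the sperm protein required for fusion with the egg, from 2.60 and 1.999 to 84.9 and 43.3 FPKM. Other genes of this list were already high in diplotene and did not pass: Acr, the acrosin gene, had 229 and 211 and then 369 and 325 FPKM (0.65 ± 0.29, limma adjusted p = 0.089), and Crisp2 had a change of -0.04. Among genes not on a list, Tmem190, Odf3l1, Spag4, Slc22a14, Dusp13 and Fam24a rose by 4.803 to 5.22.

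Sperm chromatin and tail genes rose as well. Prm1, Tnp1 and Catsper4, given here, are also among the round spermatid markers, so these lists overlap. Of 15 sperm chromatin packaging genes 9 rose and 2 fell, with a median of 3.65. The protamine gene Prm1 had 128.1 and 305 FPKM in diplotene and 2213 and 3794 in meiosis II (log2 3.87 ± 0.78, limma adjusted p = 0.0025). Tnp1, whose transition protein replaces histones before protamines do, had 54.2 and 112 and then 1136 and 1803 FPKM (4.18 ± 0.74). The spermatid linker histone genes H1fnt and Hils1 rose by 4.30 and 4.37, and the testis linker histone Hist1h1t of spermatocytes had 4.83 and 2.80 and then 4.15 and 3.96 FPKM, with overlapping groups. Of 32 flagellum and motility genes 21 rose and 1 fell, the fall being lost without diplotene replicate 1 or 2 or meiosis II replicate 1. The sperm calcium channel gene Catsper4 went from 2.06 and 3.14 to 73.4 and 61.8 FPKM (4.26 ± 0.37), and Akap3, a fibrous sheath anchor, from 2.32 and 3.47 to 69.2 and 70.6 FPKM (4.20 ± 0.42). Of 8 axonemal dynein heavy chain genes 0 rose and 1 fell, with a median of -0.31. The falls were 0 without diplotene replicate 1 or 2 or meiosis II replicate 2, 2 with quantile normalization and 4 with a common median. In the Cxxc1-null libraries the same round spermatid markers summed to 611 and 1285 FPKM in diplotene and 2975 and 5304 in meiosis II. These sums are weighted to the most abundant genes. The chromatin packaging list, which shares Prm1 and Tnp1, summed to 8094 and 11535 FPKM in WT meiosis II and 2726 and 5610 in Cxxc1-null meiosis II. By contrast, the 9 markers at a ratio of 16 or more had medians of 76.8% and 113% of their WT meiosis II mean in Cxxc1-null meiosis II.

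**Figure D2:**
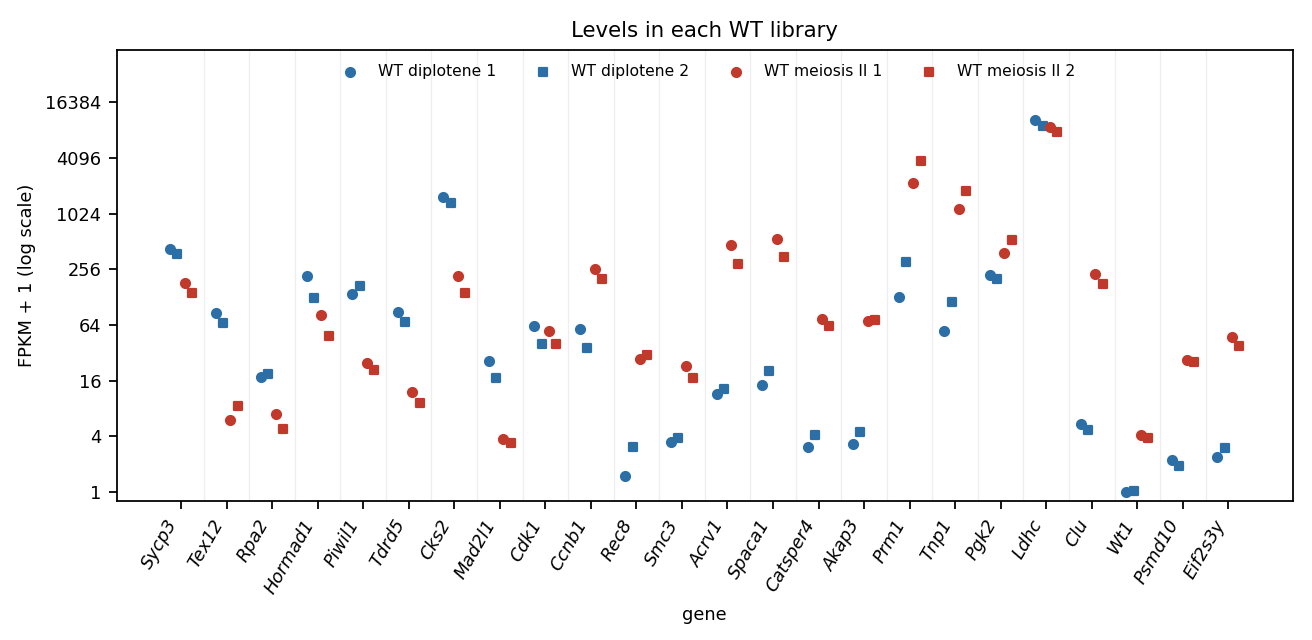
FPKM + 1 (log scale) of 24 genes in each of the 4 WT libraries, circles for replicate 1 and squares for replicate 2, blue for diplotene and red for meiosis II. Prophase genes on the left are lower in both meiosis II libraries, Cdk1 overlaps between stages, and the spermatid, Sertoli and sex-linked genes on the right are higher, Ldhc excepted.

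Promoter sequence is printed for 4 named genes whose upstream window held a full cAMP response element, the site bound by CREB family factors such as the spermatid activator CREM. Windows of 250 bases upstream were read from RefSeq (GRCm38.p6) and searched on both strands for TGACGTCA, for GTTGCC, the half-site of RFX factors, and for CCAAT, none of which contains another. A full TGACGTCA stood in 1.77% of the 27025 promoters of the table, GTTGCC in 11.8% and CCAAT in 37.5%. An entry was found for 79.6% of members, below the 80% needed to compare promoters of rises and falls, so no such comparison is given. Capitals mark TGACGTCA, and each line runs 5′ to 3′ on the gene's strand. Of these genes, Spag4, Izumo1 and Cenpe were higher in meiosis II, and the uncharacterised Gm8267 fell from 156 and 127 to 34.4 and 31.3 FPKM. Of the 187 named members 155 were called, so no link of the site to rises can be read from these 4 genes.
Spag4: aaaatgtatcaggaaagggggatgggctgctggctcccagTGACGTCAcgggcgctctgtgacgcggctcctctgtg
Izumo1: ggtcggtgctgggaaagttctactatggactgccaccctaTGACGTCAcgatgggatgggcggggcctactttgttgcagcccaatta
Cenpe: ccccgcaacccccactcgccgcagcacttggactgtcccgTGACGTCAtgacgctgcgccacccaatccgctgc
Gm8267: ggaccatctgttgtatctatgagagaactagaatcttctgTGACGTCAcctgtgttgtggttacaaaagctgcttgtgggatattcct
The windows lie at chr2:156065136-156065212 (plus strand, Spag4, the first base of the site 37 bases before the start), chr7:45621675-45621762 (plus strand, 96 bases), chr3:135212489-135212562 (plus strand, 34 bases) and chr14:44724990-44725077 (minus strand, 50 bases). A match describes the letters only, and binding was not measured in the files used here. Crem itself had 155 and 126 and then 201 and 205 FPKM and did not pass (log2 0.54 ± 0.24, limma adjusted p = 0.089).

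The 250 bases before the start, none of which hold TGACGTCA, are also shown for Cst12, Aym1 and Tex101, among the deepest changes named. Cst12, a cystatin gene, lies on chr2 and rose from 3.95 and 0.579 to 183 and 127 FPKM (log2 5.78 ± 0.56, limma adjusted p = 3.8e-05). Tex101, which encodes a germ cell surface glycoprotein, lies on chr7 and fell from 458 and 396 to 42.5 and 31.9 FPKM (-3.50 ± 0.21, limma adjusted p = 1.7e-05). Aym1, on chr5, fell from 39.8 and 60.8 to 3.54 and 2.06 FPKM (-3.75 ± 0.30).
Cst12: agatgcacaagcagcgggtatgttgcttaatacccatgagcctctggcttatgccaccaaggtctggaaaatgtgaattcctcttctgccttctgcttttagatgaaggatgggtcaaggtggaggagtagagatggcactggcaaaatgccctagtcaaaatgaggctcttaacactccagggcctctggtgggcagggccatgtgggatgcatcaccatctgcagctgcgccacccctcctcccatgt
Aym1: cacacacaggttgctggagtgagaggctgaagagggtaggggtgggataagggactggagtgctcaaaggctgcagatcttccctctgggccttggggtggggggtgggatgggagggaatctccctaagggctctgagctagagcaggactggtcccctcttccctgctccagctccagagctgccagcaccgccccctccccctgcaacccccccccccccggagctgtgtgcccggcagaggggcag
Tex101: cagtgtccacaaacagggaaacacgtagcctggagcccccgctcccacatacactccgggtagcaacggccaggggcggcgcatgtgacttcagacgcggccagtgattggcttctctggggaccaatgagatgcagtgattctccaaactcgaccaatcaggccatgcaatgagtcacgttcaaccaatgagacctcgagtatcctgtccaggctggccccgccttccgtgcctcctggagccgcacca
These windows are chr2:148789115-148789364 on the plus strand, chr5:113357044-113357293 on the plus strand and chr7:24672051-24672300 on the minus strand.

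Transcription regulators of the spermatid program rose more often than they fell. Of 23 members 10 rose and 2 fell, 43.5% and 8.70% beside 26.7% and 20.8% over all members. But 6 had reached 1 FPKM in meiosis II only. Of the 16 at that level in all 4 libraries 4 rose and 2 fell, beside 16.1% and 22.7% of all members at that level. The falls were 0 or 1 with any WT library left out. Sox5 went from 0.778 and 1.27 to 17.2 and 18.1 FPKM (log2 3.21 ± 0.34), and Rfx1 from 0.251 and 0.599 to 9.49 and 12.1 FPKM (3.05 ± 0.34). Rfx2, a regulator of ciliary and spermatid genes, had 66.9 and 100.6 and then 82.6 and 99.5 FPKM, Mybl1, a regulator of pachytene genes, had 9.76 and 6.44 and then 9.11 and 7.46 FPKM, and Tbpl1, a TATA-binding protein relative, had a change of 0.19 ± 0.22. None of these 3 passed the test.

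Of 21 glycolysis members 10 rose and 1 fell, with a median of 1.10. The retrogenes Aldoart1 and Aldoart2 rose by log2 3.56 and 4.50, and the lactate dehydrogenase gene Ldhb from 0.590 and 0.973 to 31.2 and 22.2 FPKM (3.95 ± 0.32). Pgk2, the testis copy of phosphoglycerate kinase, had 219 and 199 and then 380 and 527 FPKM (1.10 ± 0.23, limma adjusted p = 0.0031). Ldhc, the testis lactate dehydrogenase and the most abundant transcript of diplotene, had 10502 and 9029 and then 8946 and 7848 FPKM and did not pass (-0.22 ± 0.24). Of 19 chaperones 6 rose and 4 fell, 31.6% and 21.1%, near the 26.7% and 20.8% over all members. Among them was Pdilt, which acts on sperm surface proteins, at 1.99 and 2.08 and then 102 and 62.6 FPKM. Without diplotene replicate 1 or meiosis II replicate 2 the chaperone falls were 1.

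Housekeeping families of the ribosome, respiratory chain and proteasome were lower in median. Of 80 cytoplasmic ribosomal protein genes 23 fell and 3 rose (median -0.64). Of 82 oxidative phosphorylation genes 25 fell and 4 rose (-0.59), and of 36 proteasome genes 16 fell and 1 rose (-0.55). The shares that fell were 28.8%, 30.5% and 44.4%. They stood beside 20.8% over all members and 22.7% of members at 1 FPKM or more in all 4 libraries. Rpl10a went from 173 and 218 to 37.6 and 38.0 FPKM (log2 -2.33 ± 0.23), the ATP synthase gene Atp5g3 from 220 and 204 to 62.4 and 51.7 FPKM (-1.88 ± 0.28), and the spermatocyte proteasome subunit Psma8 from 373 and 202 to 79.7 and 55.6 FPKM (-2.03 ± 0.36). The 3 ribosomal protein genes that rose, Rpl36a, Rpl39 and Rps4x, and the proteasome gene that rose, Psmd10, are X-linked. These counts depend on the libraries: with 1 WT library left out, the falls were 10 to 15 for ribosomal, 14 to 17 for oxidative phosphorylation and 8 to 10 for proteasome genes, but with quantile normalization and a common median they were 39 and 50, 41 and 46, and 17 and 20.

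**Figure D3:**
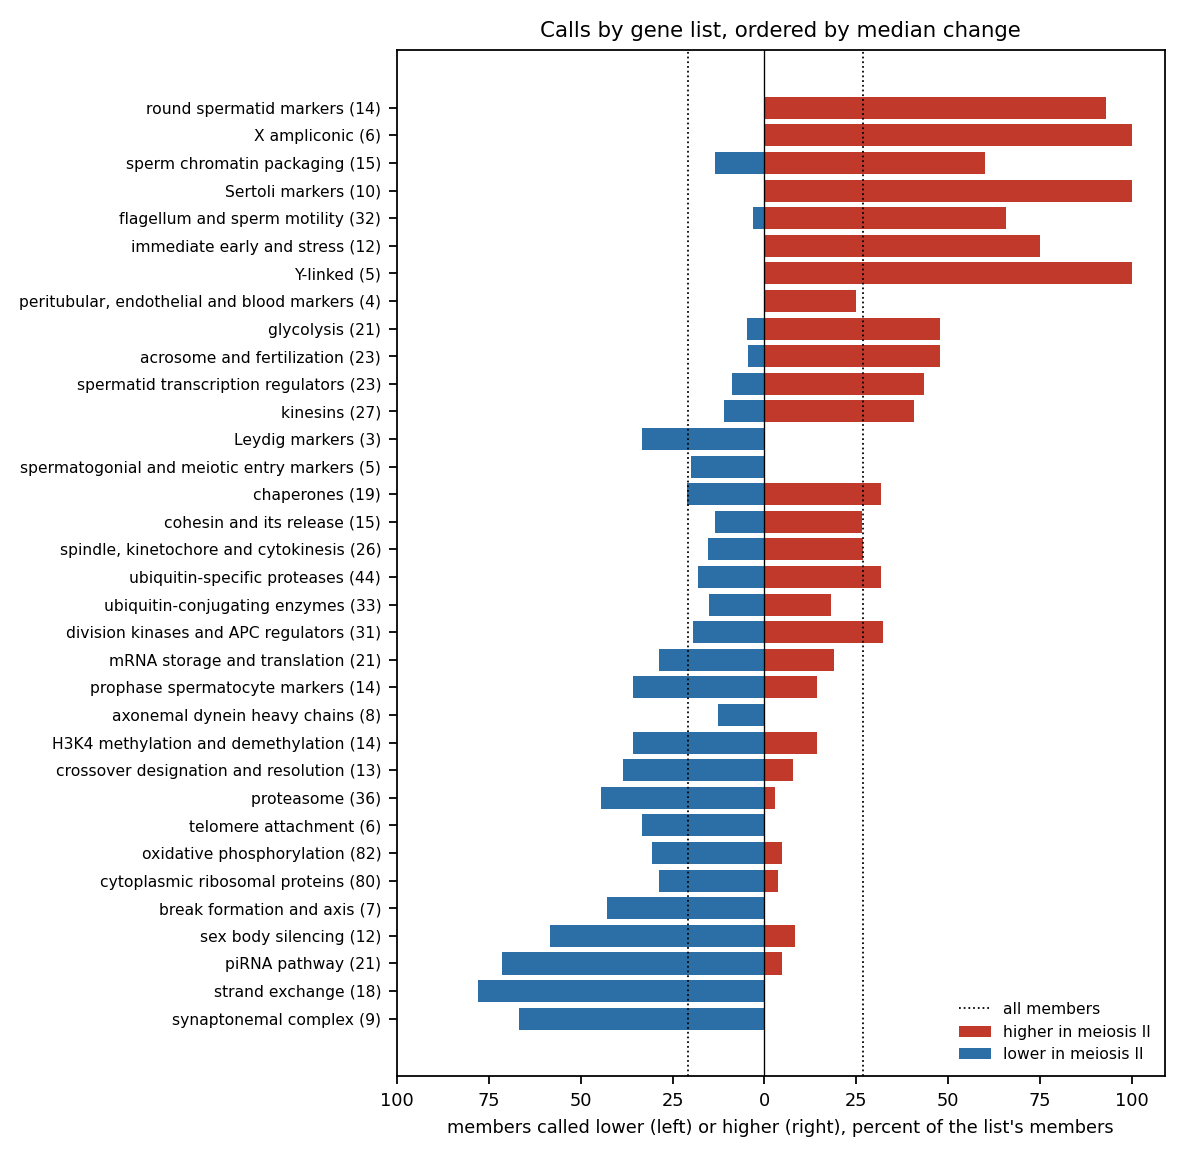
Percent of the members of each gene list called higher (red, right) or lower (blue, left) in WT meiosis II, with the number of members in parentheses and lists ordered by median change; dotted lines mark the share over all members. Synaptonemal complex, strand exchange and piRNA lists lie at the bottom with 67%, 78% and 71% lower, and round spermatid markers at the top with 93% higher.

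Markers of Sertoli cells, the somatic nurse cells of the tubule, were also higher in the meiosis II libraries. All 10 member markers of 15 in the table rose, 5 of them having reached 1 FPKM in meiosis II only. Their summed level was 13.0 and 10.6 FPKM in diplotene and 391 and 293 in meiosis II. The defining factors Wt1 and Sox9 had 0 and 0.0229 and then 3.18 and 2.80 FPKM, and 0.0542 and 0.0335 and then 2.13 and 2.03 FPKM. Clu, a secreted chaperone made by Sertoli cells, had 4.48 and 3.67 and then 228 and 178 FPKM (log2 5.32 ± 0.54, limma adjusted p = 4.8e-05). Cst12, Cst9 (5.24 ± 0.55) and the defensin gene Defb19 (4.91 ± 0.40), all of chromosome 2, lay in the same range. In Cxxc1-null meiosis II the Sertoli markers summed to 291 and 283 FPKM. Their part in these rises was not tested. Leydig markers summed to 38.4 and 68.5 and then 272 and 48.5 FPKM, mostly Insl3, and peritubular, endothelial and blood markers to 4.23 and 6.19 and then 52.9 and 9.68 FPKM, so meiosis II library 1 was above library 2 in both. Of 3 Leydig members 0 rose and 1, Star, fell (-0.54). Of 4 peritubular, endothelial and blood members 1 rose and 0 fell, 3 having reached 1 FPKM in meiosis II only. Both calls were lost when only the 4 WT libraries were fitted. Immediate early and stress genes rose in 9 of 12 members, 9 having reached 1 FPKM in meiosis II only, but their summed level was 227 and 273 and then 220 and 213 FPKM. Of 14 prophase markers 5 fell (2 without diplotene replicate 1 or meiosis II replicate 2) and 2 rose, and their sum was 15342 and 12943 and then 13053 and 11826 FPKM.

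X-linked genes rose almost as a block. Of 340 X-linked members 325 were higher and 1, Rap2c, was lower, with a median change of 2.34, against 24.5% higher and a median of -0.05 for 11020 autosomal members. Single autosomes had medians of -0.15 to 0.13 and 20.1% to 33.6% of members higher. Since 266 of the 340 reached 1 FPKM in meiosis II only, the share of all X-linked genes in the table is the plainer measure. Of 1013 X-linked genes, 5.13% and 6.22% reached 1 FPKM in the diplotene libraries and 37.4% and 34.4% in meiosis II. For autosomal genes the shares were 44.3% and 44.2%, then 50.8% and 47.9%. In WT pachytene they were 15.9% and 13.5% for the X. Among the 40 X-linked members at 1 FPKM or more in all 4 libraries, 77.5% were higher, against 15.7% of the 8758 autosomal members at that level. Most X-linked members passed the limit in meiosis II only, so selection itself lowers their diplotene median. Within that limit, the X minus autosome difference in median log2 level over members was -3.06 and -3.04 in diplotene and -0.81 and -0.85 in meiosis II. With 2 against 2 libraries an exact test cannot go below p = 0.333, so no test was made of it. Sertoli and round spermatid markers moved with it, as given above, and their part in it was not tested.

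Single X-linked genes, Phf6, Ribc1, Zfp711 and Akap4 being chosen after their values were seen, had the following levels. The plant homeodomain gene Phf6 had 0.343 and 0.351 FPKM in diplotene and 12.4 and 12.9 in meiosis II. Ribc1 went from 1.64 and 2.08 to 60.8 and 54.4 FPKM, and Zfp711, a zinc finger gene, from 0.155 and 0.272 to 14.6 and 10.5 FPKM. The fibrous sheath gene Akap4 went from 3.68 and 5.64 to 125 and 134 FPKM. The proteasome subunit gene Psmd10 went from 1.19 and 0.903 to 26.0 and 24.4 FPKM (log2 3.68 ± 0.31, limma adjusted p = 2.4e-05), and the ubiquitin-conjugating enzyme gene Ube2a from 0.636 and 0.772 to 17.4 and 15.7 FPKM (3.37 ± 0.41). The phosphoglycerate kinase gene Pgk1, whose autosomal retrogene is Pgk2, had 0.936 and 0.414 and then 4.72 and 2.51 FPKM (1.44 ± 0.30), named after its values were seen. Of the 6 Y-linked members all were called higher, but 5 had reached 1 FPKM in meiosis II only. The exception was the translation factor gene Eif2s3y, from 1.41 and 2.03 to 46.5 and 37.0 FPKM (3.97 ± 0.24).

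**Figure D4:**
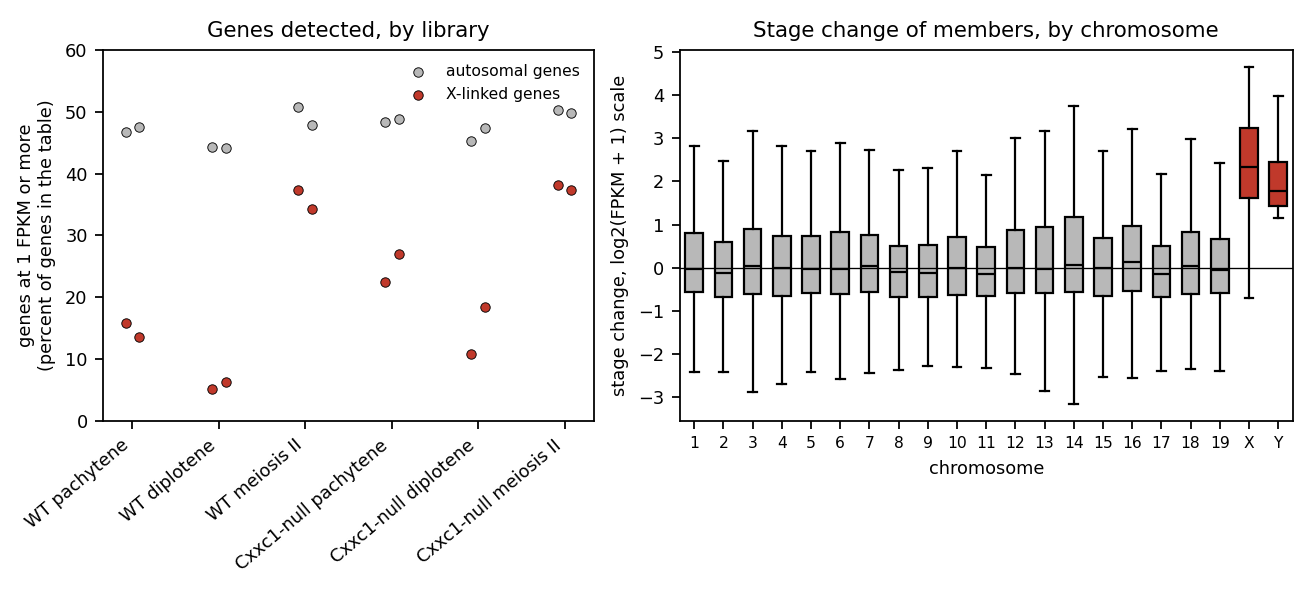
Left, percent of X-linked (red) and autosomal (gray) genes of the table at 1 FPKM or more in each of the 12 libraries; right, the WT stage change of members on the log2(FPKM + 1) scale by chromosome, as medians, quartiles and whiskers to 1.5 interquartile ranges. X-linked genes at 1 FPKM or more go from 5.13% and 6.22% in WT diplotene to 37.4% and 34.4% in WT meiosis II, and the X and Y boxes lie above those of all autosomes.

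Genes that write and erase H3K4 methylation, the mark laid down by complexes of CXXC1, fell more often than they rose. Of 14 members 5 fell and 2 rose, with a median of -0.50. The shares were 35.7% and 14.3%, beside 20.8% and 26.7% over all members. Of the 12 at 1 FPKM or more in all 4 libraries 4 fell and 1 rose, and 1 member had reached that level in meiosis II only. The methyltransferase genes Mll2 and Wbp7 went from 5.05 and 5.54 to 1.26 and 0.769 FPKM (log2 -1.65 ± 0.22) and from 5.17 and 5.79 to 2.36 and 1.87 FPKM, and the demethylase gene Kdm5b from 64.7 and 69.5 to 35.5 and 29.0 FPKM (-1.04 ± 0.20). Dpy30, a subunit shared by these complexes, rose from 69.5 and 73.9 to 205 and 238 FPKM (1.61 ± 0.31), and Hcfc1, the other gene that rose, is X-linked. Without diplotene replicate 2 or meiosis II replicate 2 the falls were 3, and with quantile normalization 9. Cxxc1 did not pass the test (-0.27 ± 0.25, limma adjusted p = 0.42).

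Most WT calls were also made in Cxxc1-null cells. There 5162 members were called, against 44.1% of all genes tested, and 4313 were called in both genotypes with the same sign, which is 79.3% of the WT calls and 83.6% of the Cxxc1-null calls. Across members the changes of both genotypes, which share no library, correlated at r = 0.913. The median over the WT rises was 1.83 in WT and 1.54 in Cxxc1-null, and over the WT falls -1.09 and -0.98. For Acrv1 the changes were 4.93 and 3.05, a difference of -1.88 ± 0.75 that did not pass (limma adjusted p = 0.54), and for Clu they were 5.32 and 5.46. Mean Acrv1 was 44.8 ± 35.6 FPKM (SD, n = 2) in Cxxc1-null diplotene and 334 ± 153 in Cxxc1-null meiosis II. In WT it was 11.1 ± 1.05 and 378 ± 123. Cxxc1-null diplotene replicate 2, which stood apart, enters every Cxxc1-null change, and its part in the smaller rises was not tested. The difference between genotypes passed in 2 members, with 0.054% of all genes tested called and 899 members at an unadjusted p under 0.05. The mitochondrial carrier gene Slc25a43, X-linked, had 0 and 0.0728 FPKM in WT diplotene and 3.56 and 4.42 in WT meiosis II, and a mean of 0.483 ± 0.185 FPKM (SD, n = 2) in Cxxc1-null meiosis II (difference -1.70 ± 0.21, limma adjusted p = 0.016).

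The other was Mir92b, listed at 0 in both WT diplotene libraries and in all 4 Cxxc1-null libraries of these stages, with 96.5 and 180 FPKM in WT meiosis II. Its mature sequences from RefSeq are given because miRNAs act through their seed, bases 2 to 8, in capitals.
mmu-miR-92b-3p: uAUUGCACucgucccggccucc
mmu-miR-92b-5p: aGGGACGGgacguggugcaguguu
The libraries were primed with oligo-dT, and whether the FPKM of so short a gene measures the miRNA was not tested. Of 55 short RNA members 5 rose and 5 fell, 9.09% each way, beside 26.7% and 20.8% over all members.

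**Figure D5:**
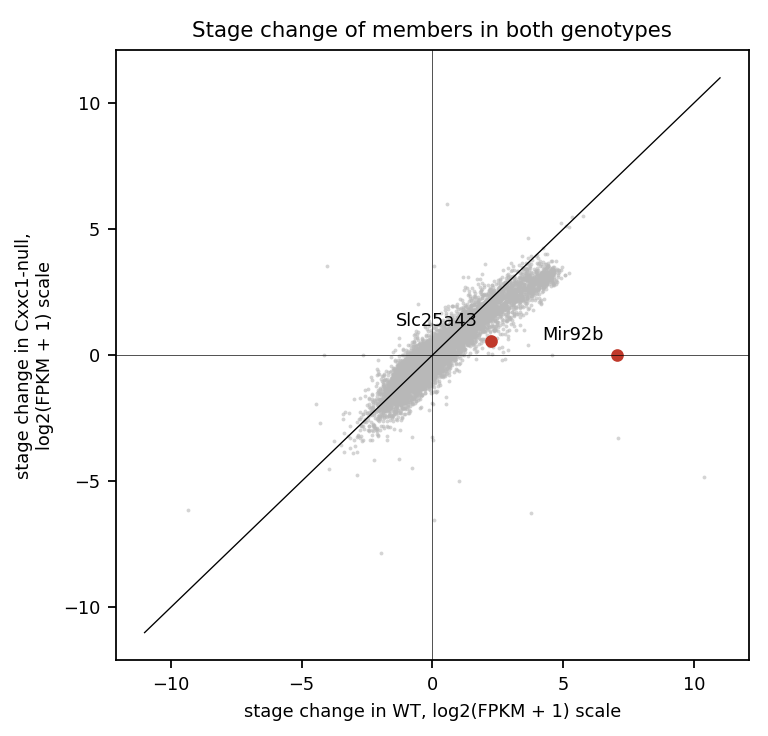
Change from diplotene to meiosis II in Cxxc1-null (vertical) against WT (horizontal) for each member, on the log2(FPKM + 1) scale, with equal changes on the black line. The 2 members whose changes differed between genotypes in limma, Mir92b and Slc25a43, are in red, and most members lie along the line with r = 0.913.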

How the data were processed

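The deposited FPKM table was made by the authors from Smart-seq2 reads, with TopHat2 2.1.1, Cufflinks 2.2.1 and the mouse build mm9 per the submitters' processing notes. The role and settings of each tool are not given in the sources used here, nor is the counting of strand, so a gene and an overlapping or antisense gene cannot be told apart. Depth is unknown: low values did not give whole reads, since the commonest ratio between libraries was shared, within 1%, by 12.4% to 18.2% of genes under 0.3 FPKM. Values were taken as log2(FPKM + 1), which understates the change of low genes, for 12956 genes at 1 FPKM or more in at least 2 of 12 libraries. The fit was limma 3.58.1 in R 4.3.3 with an intensity trend, 1 mean for each of 6 groups and 6 residual degrees of freedom, and the script was tested on simulated data. P-values were adjusted by Benjamini-Hochberg over all genes tested, with a threshold of 0.05. Genes were named as the 12 largest called rises and falls not overlapping between groups and, per list, up to 4 members with the smallest p, along with the 5 most abundant genes of each stage, the 6 smallest p-values for the difference between genotypes and a list of genes given whatever their values. Short RNA and uncharacterised genes were left out of the first part of this rule. Other names (Akap4, Crisp2, Phf6, Pgk1, Plk1, Rap2c, Ribc1, Rpl36a, Rpl39, Syce1, Syce2, Syce3, Tdrd7, Wbp7 and Zfp711) were chosen after their values were seen. The members and the 34 gene lists were chosen with earlier results of these data known. Chromosomes and promoters come from RefSeq GRCm38.p6 and were matched by symbol, and no mm9 coordinate is used. Alternatives were another pseudocount, other filters, 2 scalings, fewer libraries, a replicate block and each WT library left out.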

Additional observations from a re-analysis of the deposited data

Results flagged for a closer look

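The change from diplotene to meiosis II differed between genotypes for 2 members by limma's test of that difference over all genes. For Mir92b the Cxxc1-null change was 7.05 lower on the log2 scale (-7.05), with WT meiosis II at 96.5 and 180 FPKM and all other libraries of these stages listed at 0. For the X-linked carrier gene Slc25a43 the difference was -1.70, with a WT change of 2.26 and a Cxxc1-null change of 0.56.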

How the results depend on the processing

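The 2380 falls became 3576 with quantile normalization and 3693 with a common median, and 1498 to 1764 with 1 WT library left out (1578 without diplotene replicate 1, 1498 without meiosis II replicate 2). The 3059 rises were 2559 to 2774 with 1 WT library left out. The X minus autosome median change over members (2.38) was 4.20 with a pseudocount of 0.1, 3.07 at 5 FPKM or more and 2.24 with quantile normalization. It was 2.28 to 2.48 with 1 library left out. The number of members whose change differed between genotypes (2) was 1 with a pseudocount of 0.1, at 5 FPKM or more, with a common median, without short RNA genes, adjusted over members alone or with no trend, 18 with no filter, 5 without both libraries that stood apart, and 1 to 4 with 1 library left out. Same-numbered WT diplotene and meiosis II libraries deviated together (r = 0.314), but the labels do not pair them. With the replicate number as a block, 3292 members rose and 2881 fell, and 4 differed between genotypes. Of 187 named members 155 were called, and 144 of these stayed called with the same sign under every alternative run. The signs that turned were all of genes not called as deposited. Under quantile normalization these were Gfra1 -0.043, Cyp17a1 -0.068, Tagln -0.055, Meig1 0.19, Mybl1 -0.22 and Hist1h1t -0.26. With a common median they were Dmrtb1 -0.024, Ddx4 -0.15, Tbpl1 -0.11, Rfx2 -0.15, Mybl1 -0.25 and Hist1h1t -0.19. The ranges with 1 library left out were -0.40 to 0.25 for Cdk1, -0.30 to 0.057 for Stag3, -0.15 to 0.43 for Rfx2, -0.35 to 0.64 for Ddx4, -0.22 to 0.31 for Mybl1, -0.20 to 0.41 for Hist1h1t, -0.069 to 2.41 for Insl3, -0.44 to 1.31 for Cyp17a1, -0.00069 to 0.74 for Tagln, -0.50 to 0.053 for Meig1 and -6.27 to 7.31 for Rn45s. The cause of these shifts was not tested.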

Other observations

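Over all members 26.7% rose and 20.8% fell. Of 27 kinesins 11 rose and 3 fell (40.7% and 11.1%), with a median of 0.44, and the rises were 7 without meiosis II replicate 1. Kif2b, a microtubule-depolymerizing motor, had 4.10 and 6.91 FPKM in diplotene and 136 and 139 in meiosis II. Of 44 ubiquitin-specific proteases 14 rose and 8 fell (31.8% and 18.2%), but 6 members had reached 1 FPKM in meiosis II only, and of the 37 at that level in all 4 libraries 8 rose and 7 fell. The falls were 3 without diplotene replicate 1, 4 without either meiosis II library, and 15 with quantile normalization or a common median. Of 33 ubiquitin-conjugating enzymes 6 rose and 5 fell (18.2% and 15.2%), both below the shares over all members, and the falls were 3 without diplotene replicate 2 or either meiosis II library. Of 21 mRNA storage and translation genes 4 rose and 6 fell (19.0% and 28.6%), and the rises were 0 without diplotene replicate 2 or meiosis II replicate 2 and 2 without meiosis II replicate 1. Of 6 telomere attachment genes 2 fell, 1 without diplotene replicate 1 or 2 or meiosis II replicate 2, and 3 without meiosis II replicate 1. Of 6 ampliconic X-linked genes 6 rose, with a median of 3.91, beside 95.6% higher over all X-linked members. Only 2 of the 6 were at 1 FPKM or more in all 4 libraries.

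Poorly annotated genes rose often, and more so in the RIKEN testis clone series. Of all 1943 uncharacterised members 804 rose and 308 fell (41.4% and 15.9%, median 0.33). Of 363 members whose symbols begin with the code of the first RIKEN testis clone series, 226 rose and 27 fell (62.3% and 7.44%, median 1.97). Of 445 of the other RIKEN testis series 259 rose and 43 fell (58.2% and 9.66%, median 1.28). Over all members 26.7% rose and 20.8% fell. Of members that reached 1 FPKM in meiosis II only, 95.5% were called higher, and how many of these clones were among them was not counted. Their shares may thus partly reflect how members were selected. Among short RNA genes, Mir1892 had 936 and 444 FPKM in diplotene and under 0.002 in meiosis II, and Mir1956 was listed at 0 in diplotene and had 2167 and 807 in meiosis II. The ribosomal RNA precursor Rn45s had 5973 and 0 FPKM in diplotene and 12226 and 0 in meiosis II, and was listed at 0 in all 3 WT replicate 2 libraries.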
